A study of Rattus norvegicus with 4 samples.

Results

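The genes of the platelet-derived growth factor (PDGF) and insulin-like growth factor (IGF) ligands and receptors were examined in unmodified S16 cells, an immortalized rat Schwann cell line. The set was chosen by gene symbol, with earlier results of these data known. It holds 3 PDGF ligand genes (Pdgfa, Pdgfb and Pdgfc), 2 PDGF receptor genes (Pdgfra and Pdgfrb), 2 IGF ligand genes (Igf1 and Igf2) and 3 receptor genes of the IGF and insulin family (Igf1r, Igf2r and Insr). All 10 genes were found among the 30708 listed genes, and all 10 had a mean of at least 1 RPKM, the number of reads per kilobase and per 1000000 reads of the library. Poly(A) RNA was measured in 1 population at passage 9 and 1 population at passage 39, with a pair of libraries from each that the labels call technical replicates, for 4 libraries in all. Both populations were wild-type cells without an added agent, grown without axons in medium with fetal bovine serum, so that the passage number was the labelled difference between them. The labels call the cells myelinating Schwann cells.

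PDGF and IGF are secreted growth factors that Schwann cells can make and respond to themselves, and such autocrine signals are known to support the survival of Schwann cells that have lost contact with axons. PDGF ligands act as dimers that bring together receptor tyrosine kinases of the PDGF family. IGF-1 and IGF-2 act mainly through the IGF-1 receptor, a relative of the insulin receptor, while the IGF-2 receptor takes up IGF-2 and removes it. Binding proteins secreted into the medium hold IGFs and modulate their access to the receptor.

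The 4 libraries had recovered totals between 34246093 and 41382234 reads. These totals were inferred from the RPKM values, and the counting intervals below rest on them. Each is above the number of reads per cell line that the paper states for pooled technical replicates. The reason for this was not tested. Before the values of single genes are given, it has to be said that the libraries did not pair as labelled. Across the 11025 genes whose mean reached 1 RPKM, called the tested genes here, the SD of the differences on the log2(RPKM + 1) scale was 0.332 for the second minus the first technical replicates and 0.0582 for passage 39 minus passage 9. The median of the second minus first difference was 0.10 over all of these genes. Whether the labels of passage and number were crossed, or libraries of the same number shared a batch, cannot be told apart in these files. Both splits follow the labels as given, and if these were crossed, a difference by number would be one between populations. Each gene is therefore described both by passage and by technical replicate number, and pairs of values are given in the order passage 9, passage 39 unless stated otherwise. With 1 population per passage there is no replicate of a passage, and the exact two-sided permutation test of 2 against 2 libraries cannot go below p = 0.333, so no test between passages or numbers was run. A difference was called 2-fold when it reached 1 on the log2(RPKM + 1) scale. It was said to lie outside counting error when the 95% Clopper-Pearson intervals of the matched libraries did not overlap, in the same direction in both pairs. These intervals cover counting error only. The rule is stricter than the interval of a ratio. A gene that it did not call could still have a ratio interval that left out 1.

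By passage, none of the 10 genes differed 2-fold, and none lay outside counting error. Over all tested genes these shares were 0.00907% (1 gene, LOC102551208) and 0.0544%. LOC102551208 was above 0 only in technical replicate 2 of passage 9, at 4.75 RPKM, so its call rests on 1 library. The log2 differences of the 10 genes, passage 39 minus passage 9, were between -0.02 for Pdgfa and 0.11 for Pdgfc. Both libraries of passage 39 lay below both of passage 9 for 1 of the 10 genes, Pdgfb, and in either direction libraries did not overlap between passages for 6.21% of all tested genes. By technical replicate number, 2 of the 10 genes, Igf1 and Igf2, differed 2-fold, against 1.1% of all tested genes. Igf1 was lower in the second technical replicates, as 0.726% of all tested genes were, and Igf2 higher, as 0.372% were. The difference lay outside counting error for 6 of the 10 genes, 3 lower and 3 higher in the second technical replicates, which is near the 53.2% found over all tested genes (18.7% lower and 34.5% higher). The libraries of the 2 numbers did not overlap for 9 of the 10 genes, against 87.7% over all tested genes. The position of the 10 genes in the plot of both differences shows Igf1 and Igf2 apart along the axis of technical replicate number and close to 0 along the axis of passage.

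**Figure D1:**
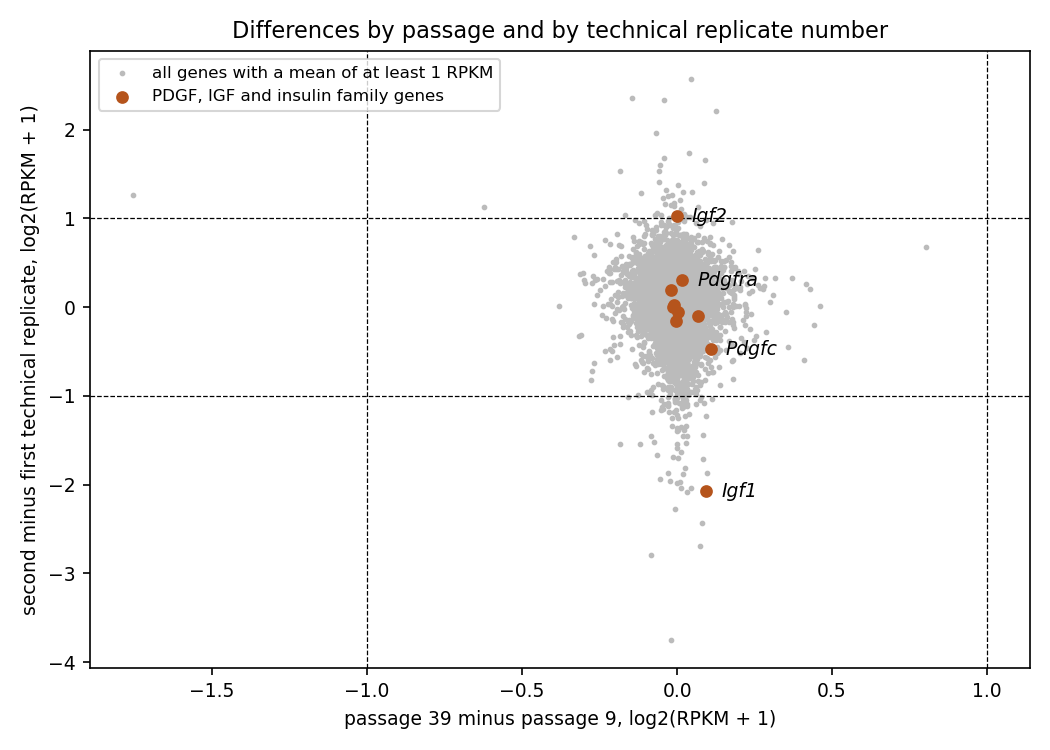
Each grey point is 1 of the 11025 tested genes, and orange points are the 10 PDGF, IGF and insulin family genes. The horizontal axis gives passage 39 minus passage 9 and the vertical axis the second minus the first technical replicate, both as differences in log2(RPKM + 1), with dashed lines at 2-fold. Igf1 lies at -2.07 and Igf2 at 1.03 on the vertical axis, while all 10 genes lie between -0.02 and 0.11 on the horizontal axis.

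Igf1, which encodes the ligand of the IGF-1 receptor, had the largest difference of the 10 genes between the libraries labelled as technical replicates. It was at 7.79 RPKM (2321 reads, 95% interval 7.48 to 8.11 RPKM) in technical replicate 1 and at 1.14 RPKM (288 reads, 95% interval 1.01 to 1.28 RPKM) in technical replicate 2 of passage 9. At passage 39 it was at 8.47 RPKM (2088 reads, 95% interval 8.11 to 8.84 RPKM) in technical replicate 1 and at 1.20 RPKM (356 reads, 95% interval 1.08 to 1.34 RPKM) in technical replicate 2. Both first technical replicates were thus high and both second ones low, with no overlap. The first was 6.83-fold above the second at passage 9 (95% interval 6.04 to 7.75) and 7.04-fold above it at passage 39 (95% interval 6.29 to 7.90). The log2(RPKM + 1) difference, second minus first, was -2.07, and 7 of the 11025 tested genes, Igf1 included, were at least as far in that direction. Averaged by passage, as labelled, Igf1 was at 4.65 ± 0.262 RPKM (SD, n = 2 populations), a mean that describes none of the 4 libraries.

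Igf2, which encodes the second IGF ligand, differed in the opposite direction. It was at 17.2 RPKM (3916 reads) in technical replicate 1 and 35.9 RPKM (6919 reads) in technical replicate 2 of passage 9. At passage 39 the values were 17.1 RPKM (3209 reads) and 36.1 RPKM (8130 reads). The libraries of the same number lay close together and those of different number did not overlap. The second technical replicate was 2.08-fold above the first at passage 9 (95% interval 2.00 to 2.17) and 2.11-fold above it at passage 39 (95% interval 2.03 to 2.20). The log2(RPKM + 1) difference was 1.03, with 38 of the 11025 tested genes, Igf2 included, at least as far in that direction, and it was 0.92 relative to the median of all tested genes. Under both other scalings of the libraries it fell short of the 2-fold threshold, at 0.91 after rescaling to a common sum and 0.94 after median-ratio scaling. Reads were counted without strand, so antisense reads at this locus cannot be told apart from those of Igf2. As the mean over populations Igf2 was at 26.6 ± 0.0129 RPKM (SD, n = 2), a mean that again describes none of the 4 libraries. The small SD arises because each population mean averages a low and a high library, and it does not show the spread between libraries. The SDs given for other genes are likewise over 2 means, each of a first and a second library, and do not show that spread.

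RPKM is given per length, so the ligands are set beside each other here. Such comparisons between genes, also the ratios and the order of levels below, rest on gene models and unique reads that were not tested. Igf1 made up 31.1% and 33.2% of the summed RPKM of Igf1 and Igf2 in the first technical replicates of passage 9 and passage 39, and 3.08% and 3.23% in the second. The sum itself was 25.0 and 25.5 RPKM in the first and 37.1 and 37.3 RPKM in the second technical replicates. In bulk RNA such as this, fewer cells that express a gene and less RNA of it per cell cannot be told apart.

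**Figure D2:**
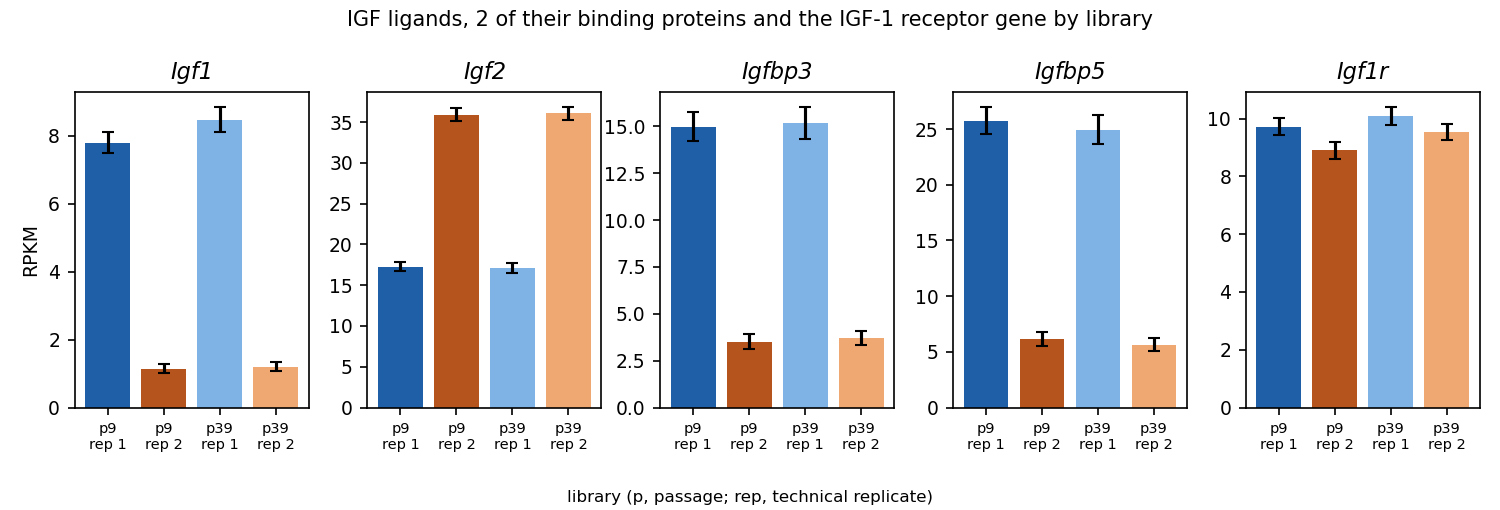
Bars give RPKM in each of the 4 libraries, starting at 0, for Igf1, Igf2, Igfbp3, Igfbp5 and Igf1r, and error bars are 95% Clopper-Pearson intervals for counting error. Blue bars are first and orange bars second technical replicates. Igf1, Igfbp3 and Igfbp5 are high in the first, Igf2 in the second, and Igf1r is between 8.91 and 10.1 RPKM in all 4.

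The regions just before the annotated starts of Igf1 and Igf2 are shown because these were the 2 genes with a 2-fold difference. The windows are the 250 bases before each start in RefSeq (build GRCr8, not the rn5 build of the reads), 1 for Igf1 at chr7:24172282-24172531 (plus strand) and 2 for Igf2, at chr1:207253981-207254230 and chr1:207250476-207250725 (both minus strand). They are written 5′ to 3′ along the gene. Capitals mark matches, on either strand, to the SOX10 monomer consensus used in the study (the word ACAAA, or with a changed ending the words ACACA, then ACAAT, and finally ACAAG). Whether S16 cells use these starts was not measured.
Igf1: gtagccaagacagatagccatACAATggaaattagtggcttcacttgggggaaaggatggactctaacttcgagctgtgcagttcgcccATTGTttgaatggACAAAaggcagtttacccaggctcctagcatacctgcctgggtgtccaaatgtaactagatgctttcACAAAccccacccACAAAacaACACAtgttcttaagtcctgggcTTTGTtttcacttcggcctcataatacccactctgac
Igf2 window 1: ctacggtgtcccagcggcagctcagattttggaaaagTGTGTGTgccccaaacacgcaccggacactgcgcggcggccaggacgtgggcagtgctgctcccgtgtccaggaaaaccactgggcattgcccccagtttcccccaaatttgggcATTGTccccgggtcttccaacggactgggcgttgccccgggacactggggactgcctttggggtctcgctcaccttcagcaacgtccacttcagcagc
Igf2 window 2: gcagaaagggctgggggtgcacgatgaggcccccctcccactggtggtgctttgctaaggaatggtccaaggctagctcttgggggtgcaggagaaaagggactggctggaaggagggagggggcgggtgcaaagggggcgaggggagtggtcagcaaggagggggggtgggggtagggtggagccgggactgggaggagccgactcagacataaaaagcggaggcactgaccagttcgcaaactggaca

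The Igf1 window held 7 matches and had a GC content of 46.8%. The Igf2 windows held 3 matches and 0 matches, with a GC content of 62.4% and 63.6%. Matches on both strands were counted, overlapping ones included. Such short words are common, and 79.6% of all 33469 RefSeq windows of this length held at least 1 match, with a median of 2. A match is a stretch of letters and does not show binding. Windows were found for 9 of the 10 genes, all but Pdgfrb. No match was found in the windows of Pdgfa, Pdgfb, Igf1r and Igf2r, while those of Pdgfc and Pdgfra held 1 each and that of Insr held 3. The GC box (GGGCGG, both strands) occurred in the windows of Pdgfa, Pdgfb, Igf1r and Igf2r and in the second window of Igf2, and in 30.5% of all windows. The TATA box (TATAAA, both strands) occurred in none of the windows of the 9 genes and in 12.9% of all windows.

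In RPKM as given, the receptor genes of the IGF and insulin family were nearly level over the 4 libraries. Igf2r, which encodes the IGF-2 and mannose 6-phosphate receptor, was the most abundant of the 10 genes at 52.6 ± 0.269 RPKM (SD, n = 2 populations). Its libraries were at 52.7 and 51.7 RPKM in the first and at 52.9 and 53.1 RPKM in the second technical replicates. Igf1r, which encodes the main signalling receptor of both IGFs, was at 9.56 ± 0.345 RPKM, with 9.73 and 10.1 RPKM in the first and 8.91 and 9.53 RPKM in the second technical replicates. Its first technical replicates lay slightly above the second, with a ratio of 1.09 at passage 9 (95% interval 1.05 to 1.14) and 1.06 at passage 39 (95% interval 1.01 to 1.10). Igf1r was also higher at passage 39 than at passage 9 in both numbers. These log2(RPKM + 1) differences were 0.047 in the first and 0.088 in the second technical replicates. Only in the second did the 95% intervals not overlap (8.62 to 9.20 RPKM at passage 9, 9.25 to 9.81 RPKM at passage 39). Insr, the insulin receptor gene, had the lowest mean of the 10 genes at 1.68 ± 0.00499 RPKM, with 1.71 and 1.76 RPKM in the first and 1.65 and 1.61 RPKM in the second technical replicates. By the rule of intervals that do not overlap, none of these 3 genes was called outside counting error by number, although both ratio intervals of Igf1r lay above 1. Pdgfb and Igf2r had second minus first differences of 0.0068 and 0.022 on the log2(RPKM + 1) scale, and these turned negative under both other scalings. The difference of Igf1r, -0.095, was -0.24 after rescaling to a common sum, and that of Insr, -0.058, was -0.20.

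The ratios of IGF ligand to receptor RPKM also differed by number. The ratio of Igf1 to Igf1r was 0.801 and 0.840 in the first and 0.128 and 0.126 in the second technical replicates of passage 9 and passage 39. The ratio of Igf2 to Igf1r was 1.77 and 1.69 in the first and 4.03 and 3.78 in the second. The ratio of Igf2 to Igf2r was 0.327 and 0.330 in the first and 0.679 in both second technical replicates. The ratio of Insr to Igf1r stayed between 0.169 and 0.185 in the 4 libraries.

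Among the PDGF ligands, Pdgfb was the most abundant and, in RPKM as given, the most level. It encodes the PDGF-B chain, whose dimer binds both PDGF receptors. Its libraries were at 39.4 and 39.4 RPKM in the first and at 40.0 and 39.3 RPKM in the second technical replicates, with a mean of 39.5 ± 0.255 RPKM (SD, n = 2). The ratio of the second to the first technical replicate was 1.01 at passage 9 (95% interval 0.959 to 1.07) and 0.996 at passage 39 (95% interval 0.942 to 1.05). Of all tested genes, 1.63% had a second minus first difference of this size or smaller. Relative to the median of all tested genes, the difference was -0.097 for Pdgfb and 0.089 for Pdgfa on the log2(RPKM + 1) scale. After rescaling to a common sum it was -0.14 for Pdgfb and 0.052 for Pdgfa, so Pdgfb was not the more level of these under that scaling. Pdgfb took between 55.4% and 57.5% of the summed RPKM of the 3 PDGF ligand genes, and this sum was between 68.5 and 71.4 RPKM.

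Pdgfa, which encodes the PDGF-A chain, a ligand of the alpha receptor, was at 25.2 and 24.6 RPKM in the first and at 28.8 and 28.6 RPKM in the second technical replicates. Its second technical replicates lay above the first, by 1.14-fold at passage 9 (95% interval 1.05 to 1.23) and 1.16-fold at passage 39 (95% interval 1.07 to 1.26). The difference was 0.19 on the log2(RPKM + 1) scale, and 0.089 relative to the median of all tested genes. By the same rule with 99% intervals it was no longer called outside counting error. Pdgfc, which encodes a ligand that is secreted in latent form and cut to become active, was the least abundant PDGF ligand gene of the 3. It was at 4.14 RPKM (191 reads) and 4.47 RPKM (171 reads) in the first and at 2.66 RPKM (104 reads) and 3.01 RPKM (138 reads) in the second technical replicates. The first technical replicates were above the second by 1.56-fold at passage 9 (95% interval 1.22 to 2.00) and 1.49-fold at passage 39 (95% interval 1.18 to 1.87). With 99% intervals Pdgfc too was no longer called outside counting error.

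The PDGF receptor genes differed by number in opposite directions. Pdgfra, which encodes the alpha receptor, was at 4.73 and 4.62 RPKM in the first and at 5.89 and 6.16 RPKM in the second technical replicates. Its second technical replicates were 1.25-fold above the first at passage 9 (95% interval 1.16 to 1.34) and 1.33-fold above them at passage 39 (95% interval 1.24 to 1.44). Pdgfrb, which encodes the beta receptor, was at 23.9 and 23.9 RPKM in the first and at 21.5 and 21.4 RPKM in the second technical replicates. Here the first technical replicates were above the second, 1.11-fold at passage 9 (95% interval 1.07 to 1.16) and 1.12-fold at passage 39 (95% interval 1.07 to 1.16). Both differences remained outside counting error with 99% intervals. The ratio of Pdgfb to Pdgfrb RPKM was 1.65 in both first technical replicates and 1.86 and 1.83 in the second, and that of Pdgfc to Pdgfra was 0.874 and 0.969 in the first and 0.451 and 0.488 in the second.

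**Figure D3:**
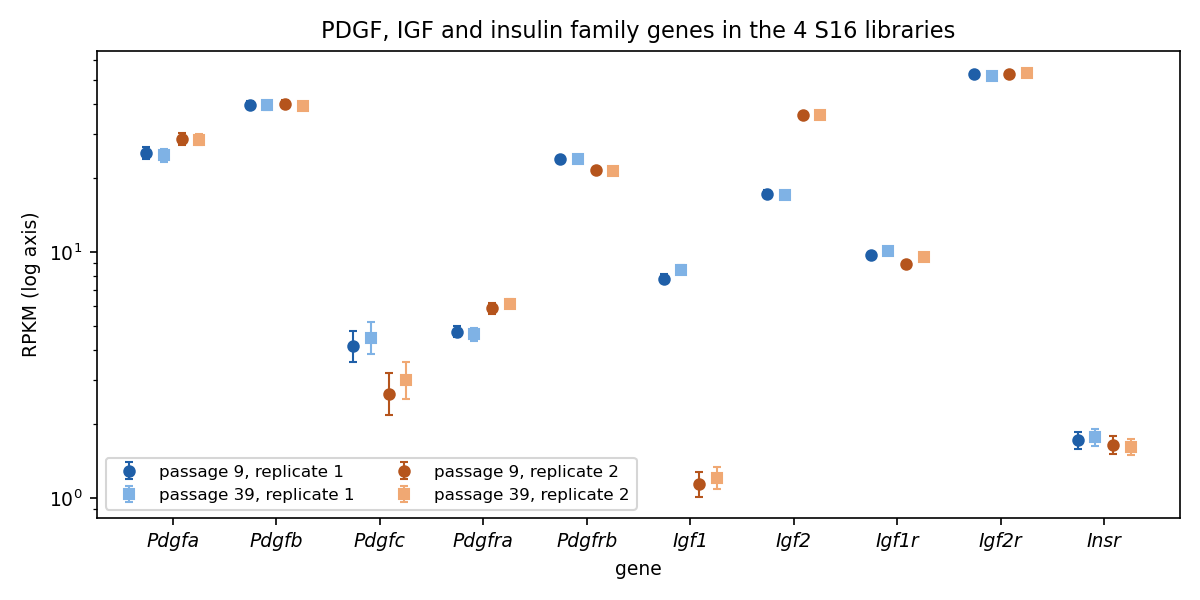
RPKM on a log axis for the 10 genes in the 4 libraries, with 95% Clopper-Pearson intervals as error bars. Blue points are first and orange points second technical replicates, circles passage 9 and squares passage 39. The colours separate most for Igf1 (7.79 and 8.47 against 1.14 and 1.20 RPKM) and Igf2 (17.2 and 17.1 against 35.9 and 36.1 RPKM). For Pdgfb and Igf2r the points of both colours lie close together. For Igf1r, the second technical replicate of passage 39 (9.53 RPKM) lies nearer the first (9.73 RPKM) than the second (8.91 RPKM) of passage 9.

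Ordered by the mean over populations, the levels ran from Igf2r at 52.6 RPKM over Pdgfb (39.5), Pdgfa (26.8), Igf2 (26.6), Pdgfrb (22.7), Igf1r (9.56), Pdgfra (5.35), Igf1 (4.65) and Pdgfc (3.57) to Insr at 1.68 RPKM. The places of Igf1 and Igf2 in this order were not stable over the libraries. The range of Igf2 over the 4 libraries included those of Pdgfa and Pdgfrb, and the range of Igf1 included those of Pdgfra, Pdgfc and Insr. In the second technical replicates Igf1 was the least abundant of the 10 genes, below Insr, while in the first it was above Pdgfra and Pdgfc. The library ranges of the other 8 genes did not overlap with each other.

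The other genes of these pathways were counted from whole lists, also chosen with earlier results of these data known. Of the 8 IGF binding protein genes, 4 had a mean of at least 1 RPKM, and all 4 of these were lower in the second technical replicates and outside counting error, against 18.7% of all tested genes in this direction. The median second minus first difference of the 4 was -1.06 on the log2(RPKM + 1) scale, and the median of all tested genes was 0.10. None of the 4 changed direction under the other scalings. Igfbp5 and Igfbp3, whose products bind IGFs in the medium and the matrix, differed 2-fold, against 0.726% of all tested genes in this direction. Igfbp5 was at 25.7 and 24.9 RPKM in the first and at 6.13 and 5.66 RPKM in the second technical replicates. Igfbp3 was at 15.0 and 15.2 RPKM in the first and at 3.49 and 3.70 RPKM in the second technical replicates. The first technical replicates were thus above the second by 4.20-fold and 4.41-fold for Igfbp5 and by 4.29-fold and 4.10-fold for Igfbp3. Igfbp7, which encodes a matrix protein with low affinity for IGFs, was the most abundant of the list at 392 and 386 RPKM in the first and at 314 and 307 RPKM in the second technical replicates. Igfbp4 was at 9.32 and 9.11 RPKM in the first and at 7.56 and 7.37 RPKM in the second technical replicates. Igfbp1, Igfbp2, Igfbp6 and Igfals had means between 0.0095 and 0.484 RPKM.

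**Figure D4:**
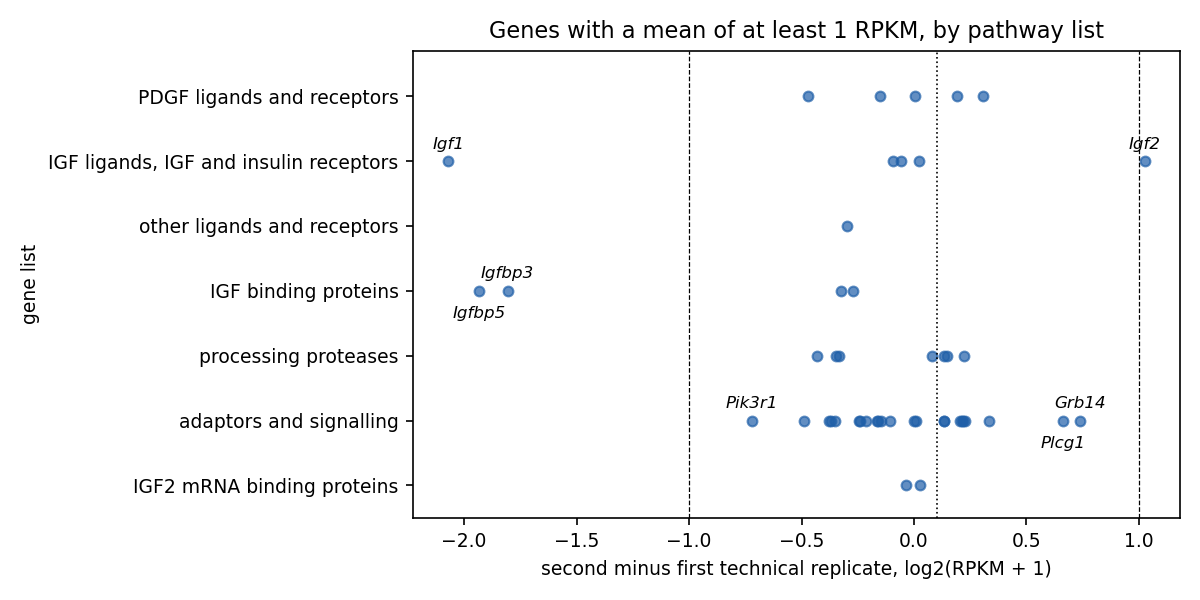
Each point is 1 tested gene, placed by its second minus first difference in log2(RPKM + 1), in rows by gene list. Dashed lines mark 2-fold and the dotted line the median of all tested genes, 0.10. Igf1, Igfbp3 and Igfbp5 lie left of the lower dashed line and Igf2 lies right of the upper one.

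Of the 6 other ligand and receptor genes, only Pdgfrl, which encodes a PDGF receptor-like protein, passed 1 RPKM. It was at 81.3 and 79.3 RPKM in the first and at 64.6 and 65.7 RPKM in the second technical replicates. Pdgfd, the fourth PDGF ligand gene, was at 0.510 RPKM (28 reads) and 0.440 RPKM (20 reads) in the first and at 0.0429 RPKM (2 reads) and 0.220 RPKM (12 reads) in the second technical replicates. M6pr was between 0.617 and 0.841 RPKM, Ins1 had a mean of 0.0135 RPKM, and Ins2 and Insrr were listed at 0 in all 4 libraries. The insulin genes themselves were thus at or near 0.

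The list of proteases that process these factors held 8 genes, of which 7 were listed and 7 passed 1 RPKM. Outside counting error were 3 lower and 3 higher of these 7 in the second technical replicates, against 18.7% lower and 34.5% higher over all tested genes. The 3 higher genes are thus near the share of all genes. The lower ones were Plat, Plau and Pappa. Pappa encodes a protease that cuts IGF binding proteins, and its level was 1.41 and 1.50 RPKM in the first and 0.919 and 0.948 RPKM in the second technical replicates. Plat encodes tissue plasminogen activator, which can cut the latent PDGF-C chain, and had a mean of 244.7 RPKM in the first and 194.2 RPKM in the second technical replicates. The higher ones were Pcsk5, Pcsk6 and Htra1, with differences between 0.13 and 0.22 on the log2(RPKM + 1) scale. That of Pcsk6 turned negative, to -0.010, after rescaling to a common sum.

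Of 26 adaptor and signalling genes, 23 passed 1 RPKM. Outside counting error were 10 lower and 8 higher of the 23 in the second technical replicates, against 18.7% lower and 34.5% higher over all tested genes. The share of higher genes is thus near that of all genes. None of the 23 differed 2-fold, against 1.1% of all tested genes. The median second minus first difference was -0.11, and 3 of the 23 genes (Shc1, Sos1 and Ptpn11), with differences between 0.0012 and 0.13, changed sign under a scaling. The largest differences were those of Grb14 and Plcg1, which were higher, and Pik3r1, which was lower in the second technical replicates. Grb14, which encodes an adaptor that restrains insulin receptor signalling, was 1.72-fold and 1.65-fold higher. Plcg1, which encodes a phospholipase activated by PDGF receptors, was 1.56-fold and 1.70-fold higher. Pik3r1, which encodes a regulatory subunit of phosphoinositide 3-kinase, had a mean of 14.7 RPKM in the first and 8.53 RPKM in the second technical replicates. Of the insulin receptor substrate genes, Irs2 had a mean of 50.0 RPKM in the first and 45.0 RPKM in the second, and Irs1 one of 7.26 and 4.88 RPKM. Irs4 and Grb10 were listed at 0 in all libraries. Igf2bp2 and Igf2bp3, whose products bind Igf2 RNA, had means of 6.22 and 13.9 RPKM, and neither lay outside counting error by number.

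The pattern of Igf1 over the 4 libraries was compared with that of all genes whose mean reached 5 RPKM, by the Euclidean distance of the log2(RPKM + 1) values centred on their own mean. The 5 closest genes were Ednrb, Atp10b, Reln, Mmp2 and LOC102554630, at distances between 0.0539 and 0.146. Ednrb, which encodes an endothelin receptor, was at 21.2 and 21.7 RPKM in the first and at 4.27 and 4.33 RPKM in the second technical replicates. Likeness over 4 libraries that fall into pairs is a description only.

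The cell type was checked against marker genes. All 5 Schwann cell markers reported here (Sox10, S100b, Pmp22, Erbb3 and Ngfr) passed 1 RPKM, and their summed RPKM was between 1841 and 1880.5. Of these, only S100b was 2-fold lower in the second technical replicates, as 0.726% of all tested genes were. It had a mean of 86.2 RPKM in the first and 32.3 RPKM in the second technical replicates. On the log2(RPKM + 1) scale Erbb3 (-0.44) and Ngfr (-0.091) were also lower in the second, while Sox10 (0.056) and Pmp22 (0.080) were higher. Sox10 and Pmp22 turned negative under both other scalings. Of 6 fibroblast markers, 2 passed 1 RPKM, Col1a1 with a mean of 3588 RPKM and Col3a1 with one of 65.9 RPKM. The summed RPKM of the list was between 3427 and 3928. Col1a2 had a mean of 0.339 RPKM, Dcn and Lum had means of 0.0033 and 0.053 RPKM, and Thy1 was listed at 0. Whether values at or near 0 reflect absent RNA, the gene models or the use of unique reads only was not tested. None of the 5 pericyte markers passed, with a summed RPKM between 0.166 and 0.211 and Rgs5 listed at 0, and none of the 5 endothelial markers, with sums between 0.339 and 0.481 and Cdh5 and Kdr listed at 0. Of the macrophage markers only Cd68 passed, with sums between 1.48 and 1.62 RPKM and Ptprc and Itgam listed at 0. Of the melanocyte markers only Pmel passed, with sums between 8.27 and 9.19 RPKM and Tyr listed at 0, and of the 4 neuron markers none passed, with sums of at most 0.0258 RPKM. The part of the Schwann cell markers in the differences of Igf1 and Igf2 was not tested.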

How the data were processed

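Poly(A) TruSeq libraries of 2 S16 populations were read as single ends by the authors, aligned with STAR to the rat rn5 genome with unique reads only, and counted per gene with HTSeq without strand. The authors deposited RPKM values, 1 per gene symbol and library. How RPKM was computed is not given in the sources used here, and the files point to RefSeq gene models.

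Library totals (34246093 to 41382234 reads) and whole reads were recovered from the RPKM values, for all 18114 genes above 0 in at least 2 libraries. In a test on simulated data, 4 of 4 totals and the reads of 96.4% of genes came back exactly. Reads that share a divisor in every library come back divided by it, and such a gene's intervals are then too wide. Each population has the mean of its 2 libraries, and SDs are over the 2 populations. Differences were taken on the log2(RPKM + 1) scale, which understates the change of low genes, for the 11025 genes whose mean reached 1 RPKM. That between numbers is the mean of the differences within each passage. Intervals of ratios between libraries are exact conditional binomial intervals. They compare libraries, not passages, and the reads carry no molecular identifiers, so several can come from 1 molecule. The labels name the libraries of a passage technical replicates, so each passage counts as 1 sample.

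The 10 genes, the pathway and marker lists and the split by technical replicate number were chosen with earlier results of these data known. Named were the 10 genes, list genes that reached 1 RPKM or that are ligands or receptors, the 5 genes most like the one with the largest difference by number, and any gene 2-fold apart between passages. Other listed genes, and the neighbouring genes in the closing section, were chosen after their values were seen. Alternatives were 2 scalings, a pseudocount of 0.1 RPKM, a minimum of 5 RPKM or none, 99% intervals and each library left out. Python 3.11.15, numpy 2.4.6, pandas 2.3.3, scipy 1.17.1 and matplotlib 3.10.9 were used. Promoter windows come from RefSeq (GRCr8), another build than that of the reads. Some genes that the lists or the gene order cover are not reported here. The mutant and clonal lines of the study were not analysed here.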

Additional observations from a re-analysis of the deposited data

How the results depend on the processing

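The differences of Igf1 and Igf2 between technical replicate numbers kept their direction under every alternative run. That of Igf1, -2.07 on the log2(RPKM + 1) scale, was -2.62 after rescaling to a sum of 1000000, -2.13 after median-ratio scaling, -2.69 with a pseudocount of 0.1 RPKM and between -2.12 and -2.02 with 1 library left out. That of Igf2, 1.03, was 0.91, 0.94 and 1.06 in turn, and between 1.02 and 1.03 with 1 library left out. Of the 10 genes, 2 differed 2-fold by number. This became 1 under both scalings, where Igf2 was lost, and 1 with a minimum of 5 RPKM, where Igf1 with its mean of 4.65 RPKM was not tested. The number of all genes 2-fold apart by number, 121 (80 lower and 41 higher), was 244 after rescaling (190 lower and 54 higher), 143 after median-ratio scaling (113 lower and 30 higher) and 253 with the lower pseudocount. The median of all tested genes moved from 0.10 to -0.026 after rescaling, and to 0.027 after median-ratio scaling. Of the 10 genes only Pdgfb and Igf2r changed sign by number under a scaling.

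By passage, the count of all genes 2-fold apart was 1, and it was 0 with a minimum of 5 RPKM. It was 25 without technical replicate 1 and 9 without technical replicate 2 of passage 9, and 27 and 13 without those of passage 39. Of the 10 genes, between 0 and 1 were called in these comparisons. Igf1 was called without either first technical replicate, at 1.45 without that of passage 9 and -1.31 without that of passage 39, where 1 passage keeps only its second technical replicate and the other keeps both. Averaging the differences within technical replicate number, which treats the number as a replicate block, gave 1 gene for all genes and 0 of the 10, the same counts as without the block. It was a description with no test. With 99% intervals, 4 in place of 6 of the 10 genes lay outside counting error by number. Of the 11025 tested genes, 4848 in place of 5870 did, a share near that of the 10 genes. The count of all genes outside counting error by passage went from 6 to 0. The depth limits low genes most. For a gene of the recovered length of Igf1, 7199 bp, 3 reads correspond to between 0.0101 and 0.0122 RPKM.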

Other observations

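The genes next to Igf1 and Igf2 in the RefSeq gene order (GRCr8) were looked up after the values of both genes were seen, among the 4 listed genes nearest on each side. Around Igf2, the lncRNA gene H19, an imprinted neighbour whose expression is known to be tied to that of Igf2 in many tissues, was at 0.0935 and 0.126 RPKM in the first and at 0.123 and 0.168 RPKM in the second technical replicates, while Igf2 was between 17.1 and 36.1 RPKM. Ins2, also next to Igf2, was listed at 0 in all libraries. LOC102548568, a gene annotated as protein-coding next to Igf2, was at 0.409 and 0.348 RPKM in the first and at 0.804 and 0.672 RPKM in the second technical replicates, so that its second technical replicates lay above the first, as those of Igf2 did. Its mean of 0.558 RPKM was below the minimum of 1 RPKM. Th, the tyrosine hydroxylase gene, and Ascl2 had means of 0.0040 and 0.040 RPKM. Mrpl23, a mitochondrial ribosomal protein gene, was at 58.2 and 62.8 RPKM in the first and at 79.5 and 80.9 RPKM in the second technical replicates, a second minus first difference of 0.40 on the log2(RPKM + 1) scale against 1.03 for Igf2.

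Around Igf1, Nt5dc3, Nup37, Parpbp and Dram1 had means between 8.91 and 15.6 RPKM. Their second minus first differences were -0.042 for Nt5dc3, 0.013 for Nup37, -0.46 for Parpbp and 0.16 for Dram1, against -2.07 for Igf1. Stab2 had a mean of 0.0106 RPKM and Pmch was listed at 0. Of the neighbours named here, 5 (Mrpl23, Nt5dc3, Nup37, Parpbp and Dram1) passed 1 RPKM. None of these 5 differed 2-fold by technical replicate number, against 1.1% of all tested genes, so the count is near that share. The other neighbours were too low to reach a 2-fold difference on the log2(RPKM + 1) scale.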
